A study of Oryza sativa with 4 samples.

Results

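*Hd1* and 4 other heading date regulators of rice, *OsMADS50*, *Ehd3*, *Ehd4* and *DTH8*, were followed in leaves of wild type and *hd1–3*. All probe sets that the platform's gene table assigns to these 5 genes were taken, which gave 7 of the 57194 probe sets without controls, for 5 of the 17905 genes the table names. *Ehd3* had 3 probe sets and each of the other genes had 1. A probe set is a group of short probes designed from a transcript sequence, and some may also match other transcripts. Its signal is a single linear intensity per array.

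Leaf RNA was measured on 4 Affymetrix Rice Genome Arrays, 1 for each genotype and day length. Wild type was Zhonghua11, a japonica cultivar. The mutant carries deletions and insertions in *Hd1* that leave it without a working gene, as the study describes it, and no other mutant line was on these arrays. All plants were 35 days old and had been grown at 28 °C. The chamber gave 11.5 h of light and 12.5 h of darkness in SD condition, and 15 h of light and 9 h of darkness in LD condition. Leaves were cut 3 h after light under SD and 5 h after light under LD condition, so day length and time after light cannot be told apart. The number of plants per array was not given in the sources used here.

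Rice is a short-day plant, and its leaves turn day length into a florigen signal. *Hd1*, the rice relative of *CONSTANS*, raises the florigen gene *Hd3a* under short days and represses it under long days. A parallel branch runs through *Ehd1*, which activates the florigen genes independently of *Hd1*. *OsMADS50*, *Ehd3* and *Ehd4* act as promoters of heading through that branch, whereas *DTH8* represses heading under long days.

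The probe sequences of the array were not used here. The primers that the study designed for quantifying *Hd1* transcripts are shown, 5′ to 3′, because they are the only *Hd1* sequence used here and the forward primer consists mostly of a triplet repeat. Capitals mark the run of CAA and CAG triplets, 7 of the 8 triplets of the forward primer counted from its 5′ end. CAA and CAG are both glutamine codons, but the reading frame of the primer was not determined. The reverse primer, written on the opposite strand, holds 0 such triplets counted in the same way. Each primer has 24 bases.
Hd1-ex-F: CAACAGCAACAGCAGCAACAAcgg
Hd1-ex-R: taccacacactcgctcccttcctt
It was not tested whether the probe set of *Hd1* covers the amplified stretch or the altered stretches of *hd1–3*.

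A floor of 100 was set for signals, since folds of dimmer probe sets were noisy. On the 4 arrays 24026 to 24717 probe sets reached it, and the median signal lay between 63.7 and 69.7. The leaf markers *RBCS*, *CAB2R* and *RCA*, genes of photosynthesis, were above the floor by their brightest probe sets, whose summed signal ranged from 119920 to 134973. A dimmer probe set of *RBCS* stayed below 100, and *CAB1R* and *PSAD* had no named probe set. As a sign of RNA quality, the 3′ over 5′ ratio of a Gapdh control pair was 1.64 and 1.48 in wild type and 4.16 and 4.25 in *hd1–3* under SD and LD condition. In 4 other control pairs the ratio differed between genotypes by at most 1.24-fold, without a common direction. At both day lengths it was lower in *hd1–3* in an Actin pair and higher in the Cyph pair. In another actin pair and in Ubiquitin the direction differed between day lengths. The summed signal of 5 floral MADS-box markers was 205 and 164 in wild type and 468 and 396 in *hd1–3*. The largest rise was in *OsMADS1*, with 71.7 and 21.9 in wild type and 296 and 237 in *hd1–3*. *OsMADS3*, *OsMADS7* and *OsMADS8* were below 100 on all arrays. *OsMADS7* under SD and *OsMADS8* under LD condition were dimmer in *hd1–3*. The Gapdh ratio and *OsMADS1* moved with genotype, and their part in the genotype differences of the 7 probe sets was not tested.

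*Hd1* (LOC4340746, chromosome 6) was dim on all arrays and reached 100 only in wild type under SD condition. On the wild type arrays the signal was 142 (SD) and 89.3 (LD), and on the *hd1–3* arrays 60.5 and 5.40. The 3 signals below 100 are treated as bounds, so their order is not read. With dimmer signals raised to 100, the SD arrays put *Hd1* at least 1.42-fold lower in the mutant, and in wild type at least 1.42-fold lower under LD than under SD condition. Under LD condition neither genotype reached 100, nor did *hd1–3* at either day length, so no size is given for those pairs.

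Folds were computed as log2 of signal + 1. For *Hd1* a computed fold depends on the number added, which is why bounds stand in its place. The LD value between genotypes moved from -3.82 to -1.70, and that between day lengths in *hd1–3* from -3.26 to -1.31, when 32 was added in place of 1.

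Each fold compares single arrays and has no replicate check. The test over arrays was limma with Benjamini-Hochberg adjustment over the 28133 probe sets that reached 100 on any array, fitted to all 4 arrays with genotype and day length as terms. All 7 probe sets entered it. The fit leaves 1 residual degree of freedom, and limma adds 8.29 from all probe sets. That residual is the difference between the genotype folds under SD and LD condition. A genotype effect that depends on day length therefore counts as error. The p-values measure mostly a shared spread of this difference between single arrays, which may be technical.

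Genotype was called for 583 probe sets, 2.07% of those tested, with 1.09% higher and 0.985% lower in *hd1–3*. None (0) of the 7 probe sets was called by limma. At an unadjusted p below 0.05 there was 1, *OsMADS50*, beside 11.7% of all tested probe sets. The median log2 difference of the 7 was -0.09, and that of all tested probe sets -0.02. For *Hd1* the difference was -2.51 on the log2 scale (standard error 1.12, 95% interval -5.05 to 0.02, limma adjusted p = 0.429), a fitted value that rests on the signals below 100. Without the *hd1–3* LD array it was -0.88 and without the *hd1–3* SD array -4.15, in fits that hold genotype alone because 3 arrays leave no residual for both terms.

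**Figure D1:**
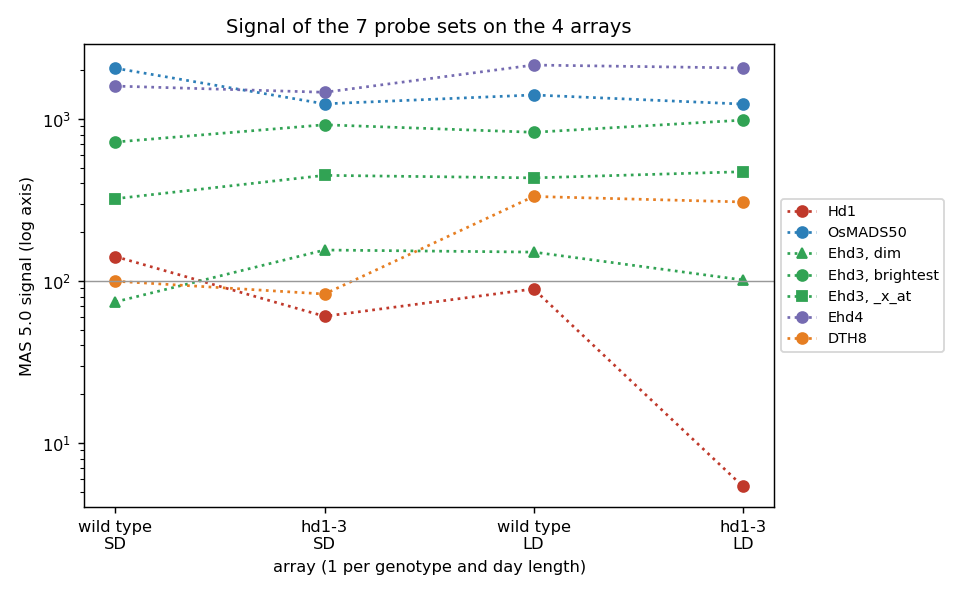
MAS 5.0 signal (log axis) of the 7 probe sets on the 4 arrays, 1 point per array, with dotted lines joining the points of a probe set and a grey line at 100; the 3 probe sets of *Ehd3* are its brightest, its _x_at and its dim one. *Hd1* is above 100 only in wild type under SD condition, and *DTH8* stands at 333 and 308 under LD condition against 99.7 and 83.1 under SD condition.

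*DTH8* (LOC4344784, chromosome 8) was brighter under LD than under SD condition in both genotypes. *DTH8* encodes a HAP3 (NF-YB) subunit of the CCAAT-binding complex and is known for delaying heading under long days. The SD arrays gave signals of 99.7 (wild type) and 83.1 (*hd1–3*), and the LD arrays gave 333 and 308. The genotypes lay close together within each day length. Both SD signals were below 100. The fold of LD over SD was therefore at least 3.33 in wild type and at least 3.08 in *hd1–3*, with SD signals raised to 100.

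Day length was called by limma for 3831 probe sets, 13.6% of those tested, with 7.09% higher and 6.53% lower under LD condition. Of the 7 probe sets, 1 was called, that of *DTH8*, which is near the share of all probe sets. At an unadjusted p below 0.05 there were 2, *DTH8* and *Ehd4*, beside 27.0% of all tested. The median log2 difference was 0.20 for the 7 and 0.05 for all tested probe sets. *DTH8* differed by 1.80 on the log2 scale (standard error 0.310, 95% interval 1.10 to 2.50, limma adjusted p = 0.00501). Leaving out 1 array, of any of the 4 groups, with day length as the only term, kept the difference between 1.67 and 1.93, but the adjusted p rose to between 0.0884 and 0.157, and without the variance trend it was 0.214.

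The genotype difference of *DTH8* was small beside that. Its log2 folds were -0.26 under SD, where both signals were below 100, and -0.11 under LD condition. The fitted genotype difference was -0.19 (standard error 0.310, 95% interval -0.89 to 0.51, limma adjusted p = 0.876).

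*OsMADS50* (LOC4331445, chromosome 3) was brightest in wild type under SD condition. It encodes a MADS-box factor related to *SOC1* of *Arabidopsis* and promotes heading, mainly under long days. Wild type had signals of 2059 (SD) and 1408 (LD), and *hd1–3* had 1241 and 1237. The wild type SD array stood 1.46-fold above the next, and the other 3 arrays lay within 1.14-fold of each other. *OsMADS50* was 1.66-fold lower in *hd1–3* under SD condition (log2 fold -0.73) and 1.14-fold lower under LD condition (-0.19). The fold of LD over SD was -0.55 in wild type and near 0 in *hd1–3*. The folds of -0.73 and -0.55 share the wild type SD array.

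The genotype difference of *OsMADS50* in limma was -0.46 (standard error 0.175, 95% interval -0.85 to -0.06, adjusted p = 0.334), so it did not pass. It was -0.18 without the wild type SD array, in the fit with genotype alone. The day length difference was -0.28 (standard error 0.175, limma adjusted p = 0.359) and turned to 0.089 without that array. Its genotype folds differed between day lengths by 0.54, which is 1.24 times the spread of probe sets at that brightness. The spread is the standard deviation, over probe sets, of the LD minus the SD fold, and was 0.439 at mean signals from 1000 to 2000. A further probe set is annotated as OsMADS50 in the study's supplement but not in the platform's gene table. It was outside the rule and stayed between 60.5 and 78.6 on all arrays.

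**Figure D2:**
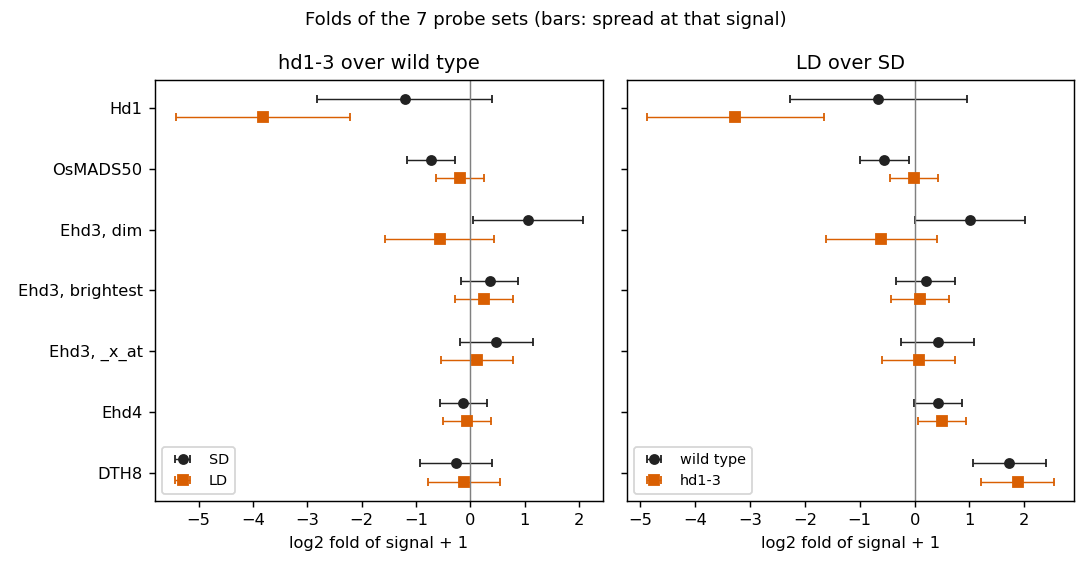
Log2 folds of signal + 1 for the 7 probe sets, *hd1–3* over wild type on the left (SD black circles, LD orange squares) and LD over SD on the right (wild type black circles, *hd1–3* orange squares), with bars of 1 spread at that brightness. The folds of *DTH8* between day lengths, 1.73 and 1.88, are larger than their bars, as are those of *OsMADS50* on the wild type SD array (-0.73 and -0.55). The same holds for *Ehd4* between day lengths in *hd1–3* (0.50) and for computed folds of *Hd1* and the dim *Ehd3* probe set that rest on signals below 100. The spread is that of a difference between folds, so a bar is a scale and not the error of the fold it is drawn on.

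*Ehd3* (LOC4344443, chromosome 8), which encodes a PHD finger protein upstream of *Ehd1*, was slightly higher in *hd1–3* on its 2 bright probe sets, and neither passed limma. The brightest gave 721 and 828 on the wild type arrays (SD and LD) and 922 and 984 on the *hd1–3* arrays. The signal was higher in *hd1–3* at each day length. The log2 folds between genotypes were 0.35 under SD and 0.25 under LD condition, with a fitted difference of 0.30 (standard error 0.168, 95% interval -0.08 to 0.68, limma adjusted p = 0.552). The folds of LD over SD were smaller, 0.20 in wild type and 0.10 in *hd1–3*, and limma gave 0.15 (standard error 0.168, adjusted p = 0.630).

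Another probe set of *Ehd3*, whose suffix _x_at marks probes that may also match other transcripts, gave 322 and 433 on the wild type arrays (SD and LD) and 449 and 473 on the *hd1–3* arrays. Here too the highest signal was that of *hd1–3* under LD and the lowest that of wild type under SD condition. The genotype difference was 0.30 as on the first probe set (standard error 0.209, limma adjusted p = 0.646). The ratio of the first to this probe set was 1.91 to 2.24 over the 4 arrays. The 2 readouts are not independent, since they measure the same RNA.

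The dim probe set of *Ehd3* did not follow the other 2. Its signals were 74.3 and 151 on the wild type arrays (SD and LD) and 155 and 102 on the *hd1–3* arrays. It was higher in *hd1–3* under SD (at least 1.55-fold with the wild type signal raised to 100) and lower under LD condition (log2 fold -0.57). The wild type SD array was the lowest and enters both the genotype fold under SD and the day length fold in wild type. The fitted genotype difference was 0.24 (standard error 0.495) and did not pass limma.

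*Ehd4* (LOC4331372, chromosome 3), which encodes a CCCH zinc finger protein that raises *Ehd1*, was bright on every array and differed little between genotypes. The SD arrays gave signals of 1598 (wild type) and 1463 (*hd1–3*), and the LD arrays gave 2155 and 2067. Within each day length the genotypes lay close together. The log2 folds between genotypes were -0.13 and -0.06, and the fitted genotype difference was -0.09 (standard error 0.145, 95% interval -0.42 to 0.23, limma adjusted p = 0.865). Between day lengths the folds were 0.43 in wild type and 0.50 in *hd1–3*. The fitted day length difference was 0.46, or 1.38-fold (standard error 0.145, 95% interval 0.14 to 0.79, limma adjusted p = 0.0665), and did not pass.

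By the size of the folds alone, with signals below 100 raised to 100 and the brighter array of a pair at 100 or more, 0 of 6 probe sets were above 2-fold between genotypes under SD condition, beside 4.10% of 26087 probe sets. Under LD condition it was 0 of 6 again, beside 3.62% of 26165. Between day lengths *DTH8* was above 2-fold in wild type, 1 of 7 beside 8.46% of 26341, and in *hd1–3*, 1 of 6 beside 8.05% of 26047. These counts are a description with no test. The genotype and the day length folds share arrays, so the same array can appear in both.

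**Figure D3:**
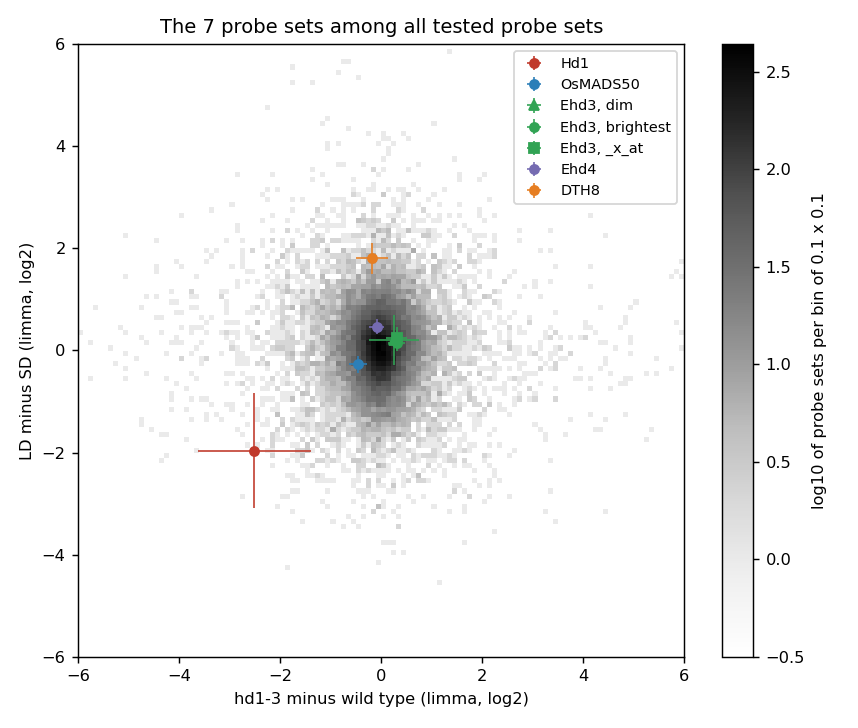
Limma log2 differences of genotype (x axis, *hd1–3* minus wild type) and day length (y axis, LD minus SD) for the 7 probe sets, with bars of 1 standard error, over the density of the tested probe sets (grey, log10 of the number per bin). *DTH8* stands high on the y axis at 1.80, *Hd1* lies low on both axes with wide bars, and the other members sit near the centre; 30 tested probe sets outside ±6 are not drawn.

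The level of a probe set cannot be compared between genes, because probes differ in how strongly they bind. For *Hd1* the wild type SD array was the highest, and the order of the others is not read. *OsMADS50* was highest in wild type under SD condition, and the lowest pair, the arrays of *hd1–3*, were nearly equal at 1241 and 1237. *DTH8* was above 100 under LD condition and below it under SD condition. *Ehd4* was highest in wild type under LD and lowest in *hd1–3* under SD condition, and spanned 1.47-fold. *Ehd3* by its brightest probe set spanned 1.36-fold.

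Other genes of photoperiodic flowering were read from a list of 22 genes, of which 11 had a named probe set and 9 were tested. *Ehd1* and *Ghd7* had no named probe set and were not analysed here. Between genotypes 3 genes passed limma as higher and 1 as lower in *hd1–3*, and 5 did not pass, beside 1.09% higher and 0.985% lower among all tested probe sets. *Hd3a*, the florigen gene, passed (limma adjusted p = 0.0342), with 295 and 4.70 on the wild type arrays (SD and LD) and 1116 and 700 on the *hd1–3* arrays. The fitted value rests in part on the wild type LD signal, which was below 100. Its computed genotype folds differed between day lengths by 5.03, which is 9.50 times the spread at that brightness. The fit counts that difference as error. The log2 fold of *Hd3a* under SD condition was 1.92. That rise in the mutant is opposite in direction to the short-day role of *Hd1* given above, and the reason was not tested. Under LD condition the wild type signal was below 100, so that no exact fold is given. The MADS-box genes *OsMADS14* and *OsMADS18*, which act downstream of florigen, differed by 1.41 and 0.70 (limma adjusted p = 0.0133 and 0.0467). The value of *OsMADS14* is that of its brightest probe set, which has the suffix _x_at. Other tested probe sets of *OsMADS14* differed by 2.14 (limma adjusted p = 0.00484) and by 2.12 (limma adjusted p = 0.0720), and the latter did not pass. *SDG712*, a SET domain gene that the study chose from these arrays, was at least 7.04-fold lower in *hd1–3* under SD and at least 9.12-fold lower under LD condition, since both mutant signals were below 100. Its presence on the list is therefore no independent evidence of direction.

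Between day lengths 2 genes of that list passed as higher under LD condition and 2 as lower, beside 7.09% and 6.53% of all tested probe sets. *DTH7*, a pseudo-response regulator that represses heading under long days, differed by 1.76 (limma adjusted p = 0.000206), close to the 1.80 of *DTH8*. *OsGI*, the rice GIGANTEA gene upstream of *Hd1*, differed by 1.73. *Se5*, a heme oxygenase gene needed to make the phytochrome chromophore, fell by 0.52. *Hd3a* passed as lower under LD condition (limma adjusted p = 0.0411), with a bound of at least 2.95-fold in wild type and a log2 fold of -0.67 in *hd1–3*. This call too rests in part on the wild type LD signal below 100. The median day length difference over the 9 tested genes was -0.31, beside 0.05 over all probe sets.

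Genes of the circadian clock and of light input, a list of 9, show what else differed with day length and time after light. Between genotypes 0 of its 8 tested genes were called by limma, and 0 had an unadjusted p below 0.05, beside 2.07% and 11.7% of all tested probe sets. Between day lengths 4 were called higher and 1 lower under LD condition, beside 7.09% and 6.53% of all tested. The evening clock gene *OsPRR1* was at least 6.13-fold higher in wild type, with a log2 fold of 2.38 in *hd1–3*. The fitted differences were 0.51 and 0.46 for the pseudo-response regulators *OsPRR73* and *OsPRR95* and 0.70 for the phytochrome gene *PHYC*. *OsLHY*, a morning clock gene, fell by 0.85. *OsLUX*, of the evening complex, differed by 1.07 and did not pass (limma adjusted p = 0.0882). These clock genes moved on the same arrays as *DTH8* and *Ehd4*, and their part in those differences was not tested.

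**Figure D4:**
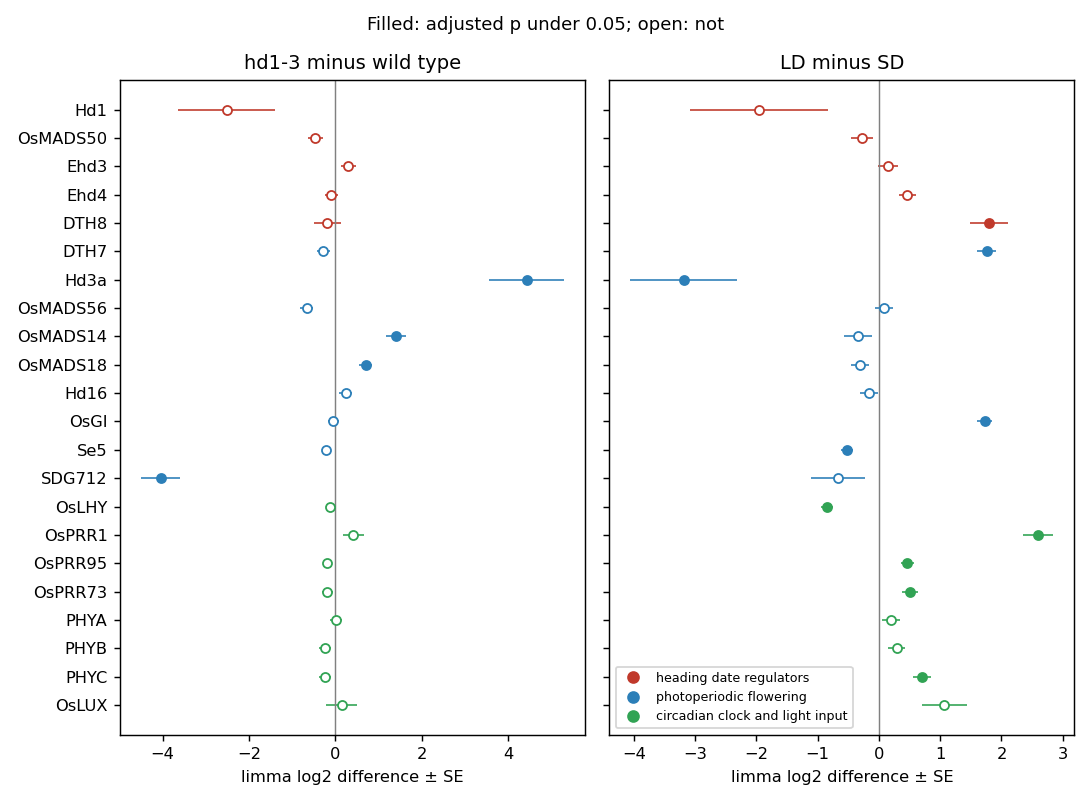
Limma log2 differences with bars of 1 standard error for the 5 heading date regulators (red, brightest probe set), the tested genes of photoperiodic flowering (blue) and of the clock and light input (green), *hd1–3* minus wild type on the left and LD minus SD on the right. Filled points have an adjusted p under 0.05; no red point is filled on the left and *DTH8* alone on the right.

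Marker genes of other tissues gave the following. Of the shoot meristem list, *OSH1* and *OSH71* were below 100 on all arrays, and *FON1* was called lower under LD condition (difference -0.72). Of the root list, *OsLsi1* was tested and not called, and *OsLsi2* stayed below 100. Of the 5 floral markers, *OsMADS1* was called higher in *hd1–3* (by at least 2.96-fold on the SD and 2.37-fold on the LD arrays, limma adjusted p = 0.0277), *OsMADS58* was tested and not called, and *OsMADS3*, *OsMADS7* and *OsMADS8* stayed below 100 on all arrays.

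The genes with the pattern most like each regulator were named by the distance between centred log2 profiles over the 4 arrays, among 17742 probe sets with 1 gene. No other gene lay within 0.25 of *Hd1*, and the nearest was LOC4341171 at 0.45, with signals of 177, 93.8, 89.8 and 7.61 in wild type SD, *hd1–3* SD, wild type LD and *hd1–3* LD. *ADC2* (LOC4334917) followed at 0.79 and LOC4326099 at 0.97. These distances of *Hd1* rest on signals below 100. For *DTH8*, 17 genes lay within 0.25, with LOC4350249 (0.050), LOC4341916 (0.11) and LOC4343986 (0.14) nearest. *OsMADS50* had 173 such genes, with LOC4351451, *FH3* and LOC4337961 nearest. *Ehd3* had 1101 and *Ehd4* 1237, with LOC4352550 and LOC4348062 nearest. *Ehd3* and *Ehd4*, the regulators with the smallest range over the 4 arrays, had the most genes within 0.25.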

How the data were processed

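Leaf RNA was hybridised to 4 arrays, 1 for each combination of genotype and day length. MAS 5.0 was used by the authors, who deposited a linear signal intensity per probe set (target value not given in the sources used here). On every array the mean without the outer 2% at each end was 500, and the values were not normalized again. The 187 control probe sets were left out. Folds were log2 of signal + 1, without a test. The limma package 3.58.1 (lmFit, eBayes with trend, R 4.3.3) was fitted to log2(signal + 1). Its code was run on simulated arrays with additive changes and equal noise at every brightness. That setting lacks the larger spread of dim probe sets and any genotype effect that depends on day length. Tables were made with Python 3.11.15, pandas 2.3.3 and numpy 2.4.6. The number of arrays limits the precision. Genes were named through the platform table and the RefSeq table of assembly ASM3414082v1.

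All probe sets of the 5 regulators are named. Of the lists (photoperiodic flowering, clock and light input, and leaf, meristem, root and floral markers), named genes passed limma or 2-fold, or were among the 4 brightest. A gene's lead probe set was its brightest. Members and lists were chosen with earlier results of these data known. Alternatives were 32 added, other scalings, other filters, no trend, 1 term left out and each array left out. The qRT-PCR and heading date data were not analysed here.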

Additional observations from a re-analysis of the deposited data

Results flagged for a closer look

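The dim probe set of *Ehd3* had folds of opposite direction. Between genotypes its log2 fold was 1.05 under SD and -0.57 under LD condition. Between day lengths it was 1.01 in wild type and -0.61 in *hd1–3*. These are the same 4 signals read in both directions, 74.3 to 155, and the difference between the folds was not tested. Neither of the bright *Ehd3* probe sets changed direction.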

How the results depend on the processing

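With 1 array left out, only 1 term can be fitted with a residual, so the other term was dropped and the lone array was assumed to vary like the others. The genotype calls then numbered 22 to 73 and the day length calls 154 to 348, beside 583 and 3831. Without the variance trend 0 were called in limma for either factor, with 2560 and 5388 at an unadjusted p below 0.05. With the other factor left out there were 53 and 1298 calls, and 259 genotype calls with all 4 arrays at 100 or more. *DTH8* lost its day length call in limma without the trend and with any array left out. Differences that turned sign with an array left out ranged, between genotypes, from -0.26 to 0.75 (dim *Ehd3* probe set), -0.34 to 0.16 (*Ehd4*) and -1.12 to 0.75 (*DTH8*), and between day lengths from -0.64 to 0.089 (*OsMADS50*), -0.33 to 0.73 (dim *Ehd3* probe set) and -0.029 to 0.32 (brightest *Ehd3* probe set). *Hd1*, *DTH8* and the dim *Ehd3* probe set were not tested where all 4 arrays had to reach 100. These fits with an array left out compare groups with unequal shares of the other factor. *Hd1* was not called in any setting that tested it, with adjusted p of 0.357 or more between genotypes. Above 2-fold, 16567, 15872, 17407 and 18191 probe sets (genotype under SD and LD, day length in wild type and *hd1–3*) became 5087, 4530, 5878 and 6189 with 32 added, 2594, 2194, 3718 and 3686 with the brighter array at 100 or more, and 1069, 947, 2229 and 2098 with signals below 100 raised to 100, a setting chosen after seeing the data. The labels give no replicate numbers, and the fit with both terms already compares genotypes within day lengths. Signals below 100 limit *Hd1*, *DTH8* under SD condition and the dim *Ehd3* probe set.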
